A study of Mus musculus with 9 samples.

Results

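The 40 genes described here encode proteins of the complement and coagulation cascades. They were taken from a list of gene symbols and not by a rule on their values, but the list was chosen with earlier results of these data known. They are 40 of the 20409 genes counted in the livers of male C57BL/6J mice, and all 40 had at least 100 counts in every library. The labels name no altered allele and no agent for any group. RNA-seq was carried out on 9 conditions, with 1 library made from the pooled livers of each condition. In the feeding experiment the mice were fed ad libitum, went without food for 16 h (ZT9 to ZT1, where ZT or zeitgeber time counts hours from lights on), or were refed for 20 h after such a fast. In the circadian experiment they spent 1 week under LD (a light and dark cycle) and then 6 weeks in DD (constant darkness), and livers were collected at intervals of 4 h from CT1 to CT21, CT being circadian time. With 1 library per condition, a difference between conditions had no replicate check and the spread between animals is unknown. The time of day at which ad libitum livers were taken is not given in the sources used here, and for refed livers only the lengths of the fast and of the refeeding are given. Feeding state and time of day cannot be told apart in that experiment.

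Complement is a cascade of plasma proteins that labels and lyses microbes. It starts from antibody-bound C1 (the classical pathway), from sugar-binding lectins, or on C3 itself (the alternative pathway), and all routes meet at C3 and end in a pore built from C5b to C9. Coagulation is a cascade of serine proteases that ends when thrombin cuts fibrinogen into fibrin, and plasmin dissolves the clot. Hepatocytes make most of these plasma proteins, whereas C1q comes mainly from macrophages, in the liver the Kupffer cells. Fibrinogen and C3 are also known as acute phase proteins, whose hepatic synthesis goes up during inflammation.

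Fga, Fgb and Fgg, which encode the Aα, Bβ and γ chains of fibrinogen, had the lowest log2 ratios of the 40 genes in the fasted library against the ad libitum library, and their upstream sequences are shown for that reason. The genes lie next to each other on chromosome 3 (GRCm38), Fgg at chr3:83007724-83015049 and Fga at chr3:83026076-83033627 on the plus strand and Fgb at chr3:83040141-83049863 on the minus strand. The sequences are from RefSeq (GRCm38.p6) and run 5′ to 3′ on the strand of the gene. Those of Fgb and Fgg end just before the RefSeq start, and that of Fga ends just before the GENCODE M21 transcript start, which lies upstream of its RefSeq start. They cover chr3:83025903-83026075 for Fga, chr3:83049864-83050113 for Fgb and chr3:83007474-83007723 for Fgg. Capitals mark CTGGGA, a motif known from interleukin-6 response elements of fibrinogen genes.
Fga: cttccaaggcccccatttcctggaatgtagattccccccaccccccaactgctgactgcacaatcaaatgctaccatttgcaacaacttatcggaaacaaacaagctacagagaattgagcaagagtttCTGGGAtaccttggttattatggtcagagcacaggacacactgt
Fgb: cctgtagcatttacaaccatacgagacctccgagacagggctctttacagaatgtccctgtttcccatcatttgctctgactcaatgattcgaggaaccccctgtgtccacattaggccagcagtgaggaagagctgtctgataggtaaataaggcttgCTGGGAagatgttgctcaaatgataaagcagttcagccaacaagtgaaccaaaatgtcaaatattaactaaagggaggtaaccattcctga
Fgg: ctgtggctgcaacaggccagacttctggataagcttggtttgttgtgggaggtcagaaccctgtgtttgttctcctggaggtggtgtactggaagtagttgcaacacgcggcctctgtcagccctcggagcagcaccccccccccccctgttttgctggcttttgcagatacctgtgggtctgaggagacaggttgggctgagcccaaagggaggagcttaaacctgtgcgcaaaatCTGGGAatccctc

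Each of the 3 sequences holds CTGGGA once, on the strand of the gene. Counted back from the RefSeq start, which for Fga lies beyond the end of the printed sequence, it covers bases -121 to -116 in Fga, -91 to -86 in Fgb and -13 to -8 in Fgg. Both strands of the 250 bases before the RefSeq start were searched for CTGGGA, for TTCNNNGAA (a STAT palindrome) and for GTTAAT (an HNF1 core). CTGGGA was present in 13 of the 31 genes matched by symbol (41.9%) and in 27.0% of all 32851 promoters of that length. TTCNNNGAA was present in 7 of the 31 (22.6%) against 7.02% of all promoters, and GTTAAT in 11 of the 31 (35.5%) against 6.43%. In Fga and Fgb a TTCNNNGAA match was also present, at -234 to -226 and -162 to -154, and neither overlapped CTGGGA. These matches describe letters in the windows and are no evidence of binding.

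The libraries held between 43485652 (CT9) and 59624294 (ad libitum) counts over genes. Levels are given as CPM (counts of a gene per 1000000 counts of the library) after TMM scaling, which corrects library size for composition. Hepatocyte markers summed to between 108890 and 132194 CPM in every library, but single markers differed more than this sum. Against ad libitum, 3 of the 10 were at least 2-fold higher and 1 was lower after fasting, beside 11.1% and 9.47% of all genes. After refeeding 1 was higher and 1 lower, beside 7.71% and 7.82%. The ad libitum, CT1 and CT17 libraries stood apart from the rest. A list of 30 acute phase genes, which holds none of the 40, took 16.8% of all counts in the ad libitum library, 10.2% at CT17 and 9.37% at CT1. In the remaining 6 libraries it took 1.05% to 2.48%. Neutrophil markers (9 of 10 listed genes counted) summed to 57.7 CPM in the ad libitum library, 37.6 at CT17 and 22.4 at CT1, and to 1.26 to 5.30 CPM elsewhere, with Ngp, Camp, Mmp8, Mpo and Retnlg at 0 in at least 1 library. Every comparison with the ad libitum library and every DD pattern below carries these values beside it, and their part in the results was not tested. Dbp, a clock output gene, was at 0.949 CPM in the ad libitum, 5.32 in the fasted and 33.9 in the refed library. In bulk liver, fewer cells of a type and less RNA per cell cannot be told apart.

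Together the 40 genes made up 13.2% of all counts in the ad libitum library, 3.66% after fasting and 5.25% after refeeding. In DD their share was 10.2% at CT1 and 8.93% at CT17, and it lay between 3.50% and 4.54% at the other 4 times. Fibrinogen alone accounted for 8.16%, 1.27% and 2.42% in the 3 feeding libraries, and C3 for 2.18%, 0.547% and 0.566%. The other 36 genes took 2.82%, 1.84% and 2.26%, so most of the difference in the summed share lay in 4 genes.

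The fasted library was compared with the ad libitum library to ask which of these genes differ with food deprivation. At a limit of 2-fold, 10 of the 40 genes were lower in the fasted library, where 9.47% of all 14412 genes compared were lower by as much, and 2 were higher, where 11.1% of all genes were. The 10 were Fga, Fgg, Fgb, C3, Cpb2, F11, C4b, Vtn, F7 and Cfb, and the 2 were Klkb1 and F13b. At any size, 33 of the 40 were lower against 53.3% of all genes. The median log2 ratio over the 40 genes was -0.61, and over all genes it was -0.05. Beside them, 27 of the 30 acute phase genes and 9 of the 9 neutrophil markers counted were at least 2-fold lower in the fasted library, with medians of -3.08 and -3.25. Intervals given with log2 ratios are exact 95% counting intervals, which cover counting error only.

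The refed library, compared with the same ad libitum library, had 7 of the 40 genes at least 2-fold lower (Fga, Fgg, Fgb, C3, Cpb2, C4b and Vtn), where 7.82% of all 14026 genes were, and Klkb1 and F13b at least 2-fold higher, where 7.71% were. At any size, 29 of the 40 were lower against 51.8% of all genes. The median log2 ratio was -0.32 over the 40 genes and -0.03 over all genes. Of the acute phase genes 29 of 30 were at least 2-fold lower after refeeding, as were 9 of 9 neutrophil markers. Against the fasted library, F11 and Fga were at least 2-fold higher after refeeding (6.21% of all 14321 genes) and 0 genes were 2-fold lower (8.39%). At any size, 9 of the 40 genes were lower in the refed than in the fasted library, against 47.0% of all genes. The 3 comparisons share libraries and are therefore not independent of each other.

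**Figure D1:**
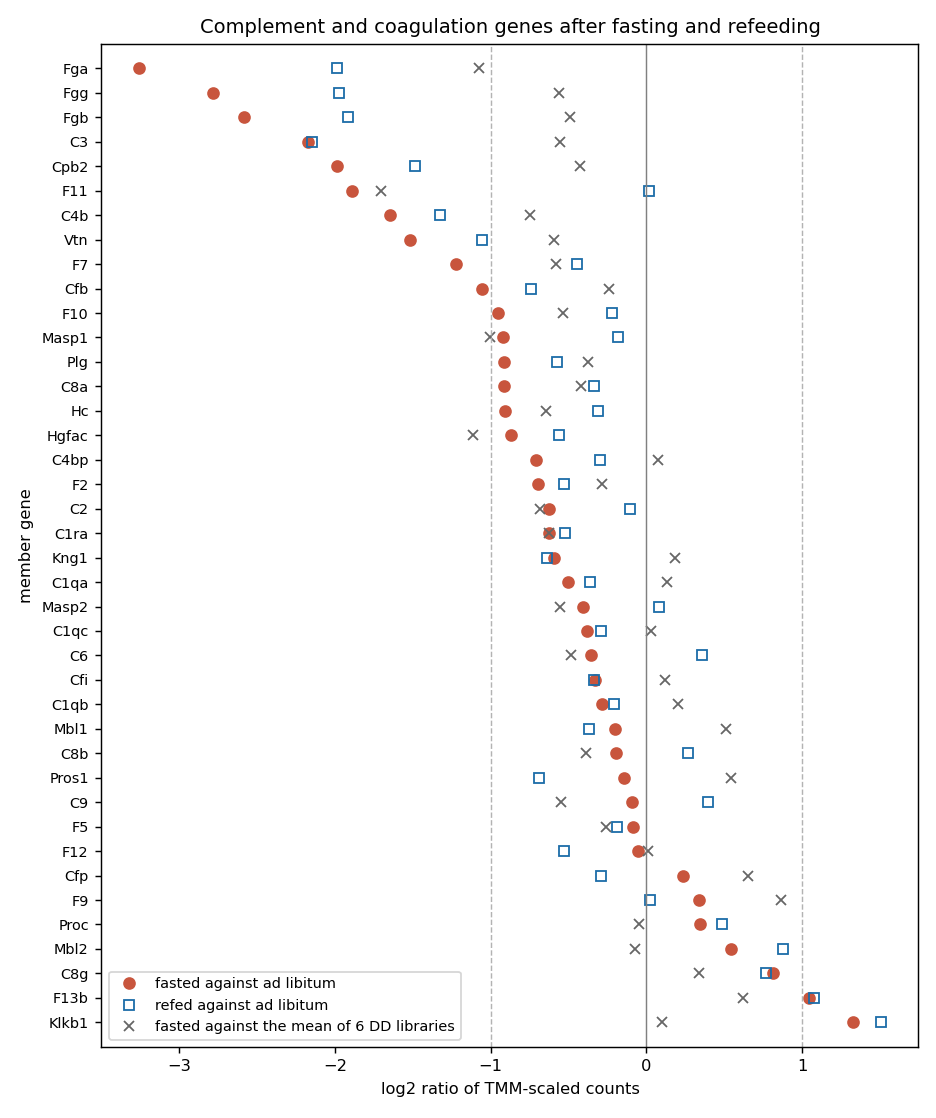
Log2 ratios of TMM-scaled counts (x axis) for each of the 40 genes (y axis, ordered by the fasted ratio), for fasted against ad libitum (filled circles), refed against ad libitum (open squares) and fasted against the mean of the 6 DD libraries (crosses), with dashed lines at 2-fold. Fga lies at the far left at -3.26 and Klkb1 at the far right at 1.33 for fasted against ad libitum, while F11 is low only where the fasted library is the numerator.

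The genes are described below in the order of their roles, beginning with fibrin formation. The Aα chain gene Fga was at 38081 CPM in the ad libitum, 3974 in the fasted and 9627 in the refed library, and at 23671, 5679.9, 5305, 3778, 20803 and 6216 CPM from CT1 to CT21. The Bβ chain gene Fgb was at 34782, 5808 and 9223 CPM in the feeding libraries and at 22544, 5397, 5401, 3868, 20199 and 5798 CPM in DD. The γ chain gene Fgg was at 21378, 3111 and 5439 CPM in the feeding libraries and at 12914, 3154, 2917, 2045, 11465 and 3375 CPM in DD. All 3 chains were highest in the ad libitum library, next at CT1 and then at CT17, which are the libraries with high acute phase levels, and the fasted library lay inside the DD range for each of them.

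Relative to ad libitum, Fga was 9.58-fold lower in the fasted library (log2 ratio -3.26, interval -3.27 to -3.25), Fgg 6.87-fold lower (-2.78) and Fgb 5.99-fold lower (-2.58). After refeeding the log2 ratios to ad libitum were -1.98, -1.97 and -1.92, so the chains lay closer to one another than in the fasted library. Refed against fasted, the log2 ratio was 1.28 for Fga, 0.81 for Fgg and 0.67 for Fgb.

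A ratio of chains within a library does not depend on the scaling. Per base of transcript, the Fgg to Fga ratio was 0.962 in the fasted library (interval 0.955 to 0.969), against 0.690 in the ad libitum, 0.694 in the refed and 0.665 to 0.682 in the 6 DD libraries. The Fgb to Fga ratio was 0.799 in the fasted library (interval 0.794 to 0.804), against 0.499, 0.524 and 0.510 to 0.560 in the same order. The fasted library thus stood outside the other 8 for both ratios. The Fgb to Fgg ratio was 0.831 in the fasted library, against 0.724 in the ad libitum and 0.754 in the refed library, and ran from 0.761 to 0.841 in DD. It was thus higher than in the ad libitum and refed libraries but inside the DD range. Only the 2 ratios to Fga put the fasted library outside all the others. Fga has 2 transcript rows, and the ratio of their counts was between 0.962 and 0.969 in all 9 libraries. The same reads may have been counted in both rows, so the second row is no separate check on Fga.

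F13b, which encodes the carrier subunit of the clot-stabilising factor XIII, differed from the chains in direction. It was at 149 CPM in the ad libitum, 307 in the fasted and 315 in the refed library, and at 145, 219, 201, 218, 219 and 207 CPM from CT1 to CT21. Its log2 ratio was 1.04 after fasting (interval 1.00 to 1.09) and 1.08 after refeeding (1.04 to 1.12), both just past the 2-fold limit. Without scaling these were 0.80 and 0.97, within the limit. The ad libitum and CT1 libraries were its lowest, and the fasted and refed libraries lay above all 6 DD libraries.

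**Figure D2:**
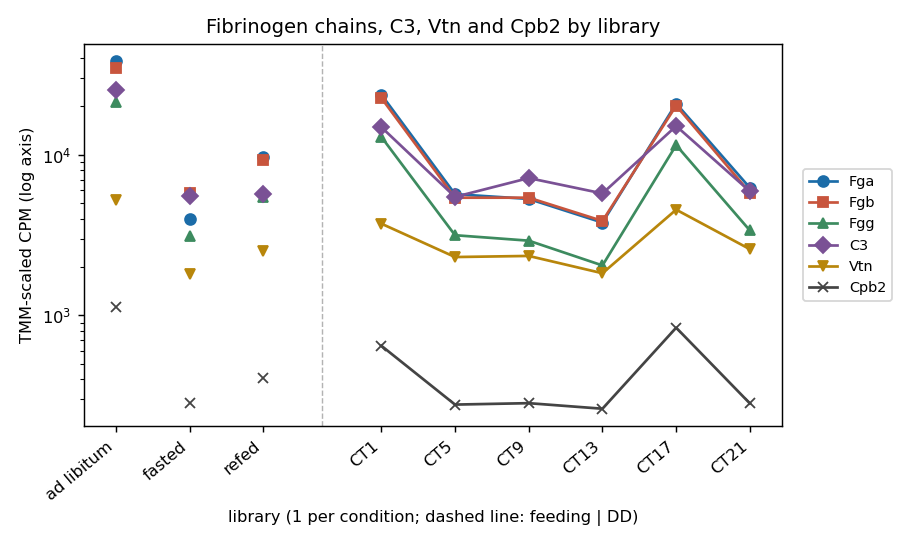
TMM-scaled CPM on a log axis (y) by library (x, 3 feeding libraries left of the dashed line and 6 DD libraries right of it, 1 library each) for Fga, Fgb, Fgg, C3, Vtn and Cpb2. All 6 genes are higher in the ad libitum, CT1 and CT17 libraries than in the others, and Fga lies below Fgb only in the fasted and, slightly, the CT9 and CT13 libraries.

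In the alternative pathway, C3, the component on which all routes converge, was at 25150.2 CPM in the ad libitum, 5567 in the fasted and 5680.4 in the refed library. The DD levels of C3 were 14842, 5461, 7154, 5738, 15073 and 5913 CPM from CT1 to CT21. C3 was 4.52-fold lower in the fasted library (log2 ratio -2.18, interval -2.18 to -2.17) and 4.43-fold lower in the refed library (-2.15), and refed against fasted was 0.03. Unlike fibrinogen, C3 in the refed library was therefore close to its fasted level.

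Cfb, the protease of the alternative convertase, was at 2993, 1442 and 1794 CPM in the ad libitum, fasted and refed libraries and at 2627, 1342, 1266, 1243, 3028 and 1449 CPM in DD. It was just past the limit after fasting (log2 ratio -1.05, interval -1.07 to -1.04) and within it after refeeding (-0.74). With total counts the value after fasting was -0.87 and with DESeq2 size factors -0.99, both within the limit. Cfb and C2 share exon sequence with the overlapping model Gm20547, so reads between them may have been split. Cfp, properdin, which stabilises that convertase and is made by myeloid cells, was at log2 ratios of 0.24 and -0.29, and its level ran from 21.8 to 45.7 CPM over the 9 libraries.

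In the classical pathway, C4b encodes complement C4, which is cut by C1 and joins C2 in the classical C3 convertase. It was at 2934 CPM in the ad libitum, 936 in the fasted and 1169.7 in the refed library, and at 1992, 1359, 1727, 1160.4, 1878 and 1474 CPM in DD. C4b was 3.13-fold lower in the fasted library (log2 ratio -1.65, interval -1.66 to -1.63) and had a log2 ratio of -1.33 after refeeding. Its near-identical neighbour C4a may share reads with it. C4a was at 31.3 CPM under ad libitum feeding and 6.72 after fasting, far below C4b. C2, the protease of the classical convertase, and C1ra, a protease of C1, had log2 ratios of -0.63 and -0.62 in the fasted and of -0.10 and -0.52 in the refed library.

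The 3 chains of C1q, the recognition part of C1, differed little with feeding. C1qa was at 107, 75.8 and 83.6 CPM in the ad libitum, fasted and refed libraries and at 96.2, 65.9, 50.1, 44.4, 119 and 65.6 CPM in DD. C1qb was at 76.6, 62.9 and 66.4 CPM and then at 78.9, 51.8, 43.5, 36.7, 92.1 and 44.7 CPM. C1qc was at 87.9, 67.6 and 71.9 CPM and then at 93.3, 63.3, 52.0, 38.6, 117 and 61.1 CPM. Each chain was highest at CT17 among the DD libraries and lowest at CT13, and the fasted log2 ratios were -0.50, -0.28 and -0.38. Kupffer cell markers (9 of 10 listed genes counted) summed to 930 CPM in the ad libitum, 950.2 in the fasted and 762 in the refed library. In DD they summed to 942, 803, 647, 586, 1082 and 617 CPM, highest and lowest at the same times as the C1q chains, and 8 of the 9 markers peaked at CT1 or CT17. The part of Kupffer cell number in the C1q levels was not tested. Per length, the C1qb to C1qa ratio lay between 0.651 and 0.829 and the C1qc to C1qa ratio between 0.708 and 0.896 over the 9 libraries.

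In the lectin pathway, none of the 4 genes passed 2-fold in a feeding comparison. Mbl1 and Mbl2 encode mannose-binding lectins, and their log2 ratios differed in sign, -0.20 and 0.54 after fasting and -0.37 and 0.88 after refeeding. The Mbl2 to Mbl1 ratio per length was 0.541 in the ad libitum, 0.904 in the fasted and 1.28 in the refed library, and it ran from 0.811 at CT1 to 2.20 at CT13 in DD. Masp1 and Masp2, the proteases bound to these lectins, had log2 ratios of -0.92 and -0.41 in the fasted and of -0.18 and 0.08 in the refed library. Masp2 shares exon sequence with Tardbp on the opposite strand, and whether counting used strand is not given in the sources used here.

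In the terminal pathway, the genes of the lytic pore were within 2-fold in both feeding comparisons. C9, which forms the ring of the pore, was at 391 CPM in the ad libitum, 367 in the fasted and 514 in the refed library and at 570.1, 470.1, 488, 494, 639 and 579 CPM in DD. Its log2 ratio was -0.09 after fasting (interval -0.12 to -0.06) and 0.40 after refeeding, and the fasted library was the lowest of the 9. With total counts the value after fasting was 0.09 and with DESeq2 size factors -0.03, so its sign and this rank depend on the scaling. Hc, which encodes C5, and C8a had log2 ratios of -0.91 each after the fast and of -0.31 and -0.34 after refeeding. C6 was at -0.36 and 0.36, and C8b at -0.19 and 0.27.

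C8 is assembled from 3 chains, and C8g, a lipocalin, differed from C8a in direction, with log2 ratios of 0.82 in the fasted and 0.77 in the refed library. The C8g to C8a ratio per length was 0.275 in the ad libitum, 0.910 in the fasted and 0.589 in the refed library and ran from 0.360 at CT17 to 0.759 at CT13 in DD. The C8b to C8a ratio was 0.441, 0.726 and 0.669 in the feeding libraries and 0.581 to 0.841 in DD. The fasted library was above the DD range for C8g to C8a, and the ad libitum library was below it for both ratios.

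**Figure D3:**
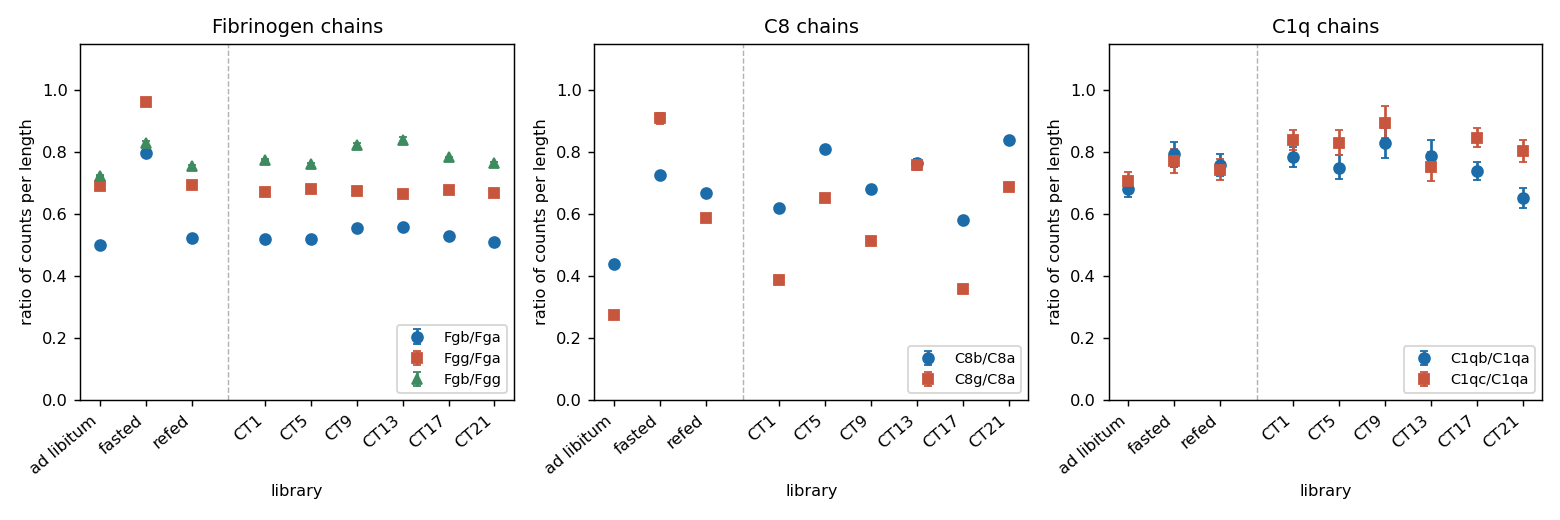
Ratios of counts per length between chains of fibrinogen (left), C8 (middle) and C1q (right) on the y axis, by library on the x axis, with exact 95% counting intervals as bars, which are smaller than the symbols for fibrinogen and C8. The fasted library stands out for Fgb/Fga (0.799) and Fgg/Fga (0.962), while C8g/C8a spreads from 0.275 to 0.910.

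Among the complement inhibitors, Vtn encodes vitronectin, which binds the terminal complex and keeps it off cell membranes. It was at 5209.6 CPM in the ad libitum, 1822 in the fasted and 2503 in the refed library, and at 3722, 2307, 2344, 1829, 4549 and 2581 CPM in DD. Its log2 ratio was -1.52 after fasting (interval -1.53 to -1.50) and -1.06 after refeeding (-1.07 to -1.05). With total counts the latter was -0.85, within the 2-fold limit. The fasted library was the lowest of the 9, marginally below CT13. C4bp, a cofactor for the breakdown of C4b, had log2 ratios of -0.71 and -0.30, and Cfi, the protease that cuts C3b and C4b, of -0.33 and -0.34.

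In the contact pathway, F11, which encodes factor XI, and Klkb1, which encodes plasma prekallikrein, are neighbouring paralogs on chromosome 8, at chr8:45241174-45262031 and chr8:45266689-45294859 on the minus strand. F11 was at 70.7 CPM in the ad libitum, 19.1 in the fasted and 71.7 in the refed library and at 61.8, 61.9, 72.4, 69.5, 41.0 and 74.0 CPM from CT1 to CT21. The fasted library was therefore the single low one, 3.70-fold below ad libitum (log2 ratio -1.89, interval -2.0 to -1.78), and refed against ad libitum was 0.02 (interval -0.05 to 0.09). F11 had the smallest count of the 40 genes, 833 reads in the fasted library. Unlike fibrinogen and C3, F11 was not above all other libraries in the ad libitum, CT1 and CT17 libraries, and at CT17 it was at its DD minimum.

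Klkb1 was at 86.0 CPM in the ad libitum, 216 in the fasted and 245 in the refed library and at 123, 269, 227, 216, 167 and 245 CPM in DD. It was 2.51-fold higher after fasting (log2 ratio 1.33, interval 1.28 to 1.38) and 2.85-fold higher after refeeding (1.51). Its 3 lowest libraries were ad libitum, CT1 and CT17, the reverse of the order seen for fibrinogen. Klkb1 shares exon sequence with Gm45753 on the same strand, so its counts may include that model. Per length, the Klkb1 to F11 ratio was 4.82 in the fasted library (interval 4.49 to 5.18), against 0.519 in the ad libitum, 1.46 in the refed and 0.853 to 1.85 in the DD libraries. Kng1, which encodes kininogen, had log2 ratios of -0.59 and -0.64, and F12, the contact factor that starts the pathway, of -0.05 and -0.53. Kng1 has a close paralog, Kng2, that may share reads with it.

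**Figure D4:**
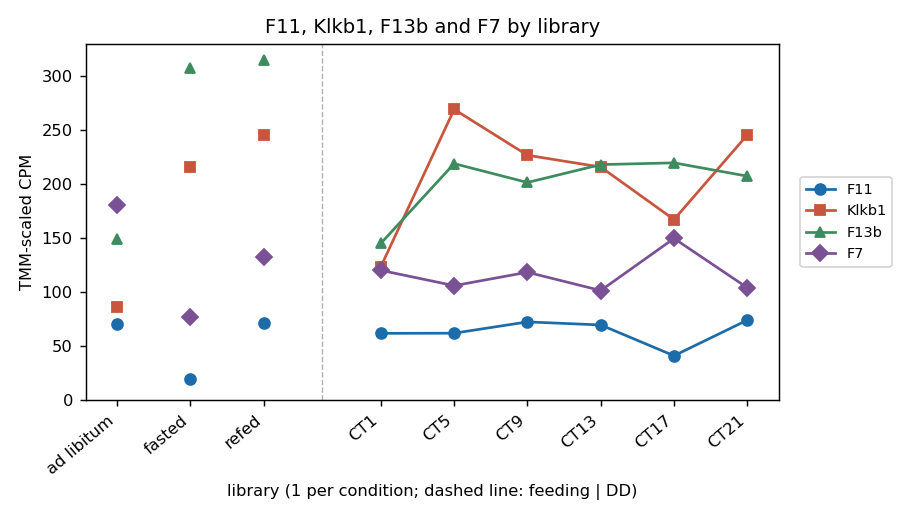
TMM-scaled CPM (y axis, from 0) by library (x axis, 1 library each, feeding libraries left of the dashed line) for F11, Klkb1, F13b and F7. F11 is at 19.1 CPM in the fasted library and between 41.0 and 74.0 in the other 8, and Klkb1 is lowest in the ad libitum library at 86.0.

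The vitamin K-dependent factors need γ-carboxylation to bind membranes. F7, the factor that pairs with tissue factor, was at 180.3 CPM in the ad libitum, 77.3 in the fasted and 133 in the refed library and at 120.1, 106, 118, 101, 149.6 and 104 CPM in DD. F7 passed the limit after fasting (log2 ratio -1.22, interval -1.28 to -1.16) and not after refeeding (-0.44), and the fasted library was the lowest of the 9. F2, which encodes prothrombin, was at 2168, 1340.1 and 1499.7 CPM in the feeding libraries and at 1716, 1621, 1496, 1376, 1919 and 1711 CPM in DD. Its log2 ratio was -0.69 (interval -0.71 to -0.68) after fasting and -0.53 after refeeding.

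F10, the protease of the prothrombinase complex, lies beside F7 on chromosome 8 and had log2 ratios of -0.95 and -0.22. F9, the factor lost in haemophilia B, differed from F10 in direction after fasting, at 0.34 (interval 0.31 to 0.37). After refeeding F9 was at 0.02 (interval -0.01 to 0.06), which shows no direction. The F9 to F10 ratio per length was 0.554 in the fasted library, against 0.226 in the ad libitum, 0.268 in the refed and 0.175 to 0.228 in the DD libraries. Of the anticoagulant pair, Proc (protein C) had log2 ratios of 0.35 and 0.48 and Pros1 (protein S) of -0.14 and -0.69. F5, the cofactor of F10 and not vitamin K-dependent, was at -0.08 and -0.19.

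In fibrinolysis, Cpb2 encodes a carboxypeptidase that slows fibrin breakdown. It was at 1133 CPM in the ad libitum, 286 in the fasted and 406 in the refed library and at 647, 279, 284, 263, 838 and 283 CPM in DD. Cpb2 was 3.96-fold lower after fasting (log2 ratio -1.98, interval -2.01 to -1.96), with a log2 ratio of -1.48 after refeeding, and its 3 highest libraries were ad libitum, CT17 and CT1. Plg, which encodes plasminogen, was at 2704, 1434 and 1817 CPM in the feeding libraries and at 2129.8, 1717, 1774, 1591, 2300.2 and 1731 CPM in DD, with log2 ratios of -0.91 and -0.57. Hgfac, a protease related to factor XII that activates hepatocyte growth factor, had log2 ratios of -0.87 and -0.56.

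The ad libitum library is the denominator of both feeding comparisons, so the fasted and refed libraries were also compared with the DD libraries. This comparison differs in lighting as well as feeding. Against the mean of the 6 DD libraries, Fga, F11, Masp1 and Hgfac were at least 2-fold lower in the fasted library (5.82% of all genes were), at log2 differences of -1.08, -1.70, -1.0 and -1.11, and 0 genes were higher (8.81%). Fgb, Fgg, C3 and Cpb2 were at -0.49, -0.56, -0.55 and -0.42. The fasted library lay below all 6 DD libraries for 16 of the 40 genes (27.8% of all genes) and above them for C8g, F9 and F13b (21.6%). For the refed library 0 genes passed 2-fold against the DD mean in either direction (4.72% and 3.69% of all genes). It lay below all 6 DD libraries for C1ra, Masp1, F12, F5 and Hgfac (21%) and above them for C8g, F9 and F13b (20.9%).

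The ad libitum library, by contrast, was at least 2-fold above the DD mean for Fga, Fgb, Fgg, C3 and Cpb2 (6.8% of all genes), with log2 differences of 2.18, 2.09, 2.22, 1.62 and 1.56, and 2-fold below it for Klkb1 (6.22%), at -1.23. It was above all 6 DD libraries for 16 of the 40 genes (19.9% of all genes) and below them for Mbl2, C8g, C9, Klkb1 and Proc (21.8%). Without CT1 and CT17, a choice made after the data were seen, the fasted library was 2-fold below the mean of the other 4 DD libraries for F11 (-1.86), Masp1 (-1.03) and Hgfac (-1.25), where 6.28% of all genes were, and 2-fold above it for 0 genes (8.89%). The refed library passed 2-fold for 0 genes (4.1% above and 3.89% below). The ad libitum library was 2-fold above that mean for 10 genes, those named above and C4b, Cfb, C4bp, Vtn and Kng1 (7.69%), and below it for Klkb1 (6.9%). In the fasted library Fga was then at -0.38, Fgb at 0.20, Fgg at 0.14, C3 at -0.12 and Cpb2 at 0.05. F11, Masp1 and Hgfac were thus the genes that stayed 2-fold lower in the fasted library against both DD means. Masp1 was only just past the limit against each mean. Without CT1 and CT17 these 3 genes were 7.5% of the 40, close to the 6.28% of all genes. Of the 3, only F11 was also 2-fold lower against ad libitum.

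In DD, 15 of the 40 genes had a peak at least 2-fold over the nadir, where 32.7% of all 14570 genes did. The log2 peak-to-nadir ratio was 2.66 for Fgg, 2.65 for Fga, 2.54 for Fgb, 1.68 for Cpb2, 1.59 for C1qc and 1.46 for C3, and it was lowest for C1ra and F12 at 0.24. C8a, at 0.999, was just under the limit and Pros1, at 1.06, just past it. The median was 0.81 over the 40 genes and 0.71 over all genes. Without CT1 and CT17, 0 of the 40 genes had a 2-fold peak, where 18.0% of all genes did. These 2 libraries were left out after they were seen to be high, which by itself lowers the number of peaks, so the drop is a description and no test. With all 6 libraries the share of the 40 genes with a 2-fold peak was 37.5%, close to that of all genes. The acute phase and neutrophil lists were also high at CT1 and CT17, and their part was not tested.

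The peak was at CT17 for 26 of the 40 genes, where 20.9% of all genes peaked, and at CT1 for C4b, Fga, Fgb and Fgg (14.5%). The nadir was at CT13 for 22 genes (18.6%). CT1 and CT17 were the 2 highest libraries for 25 of the 40 genes, where they were for 16.0% of all genes. With total counts in place of TMM, 17 genes peaked at CT17 (8.67% of all genes) and 21 had CT1 and CT17 highest (9.19%). With TMM, 10 genes peaked at neither CT17 nor CT1, and their peak times under TMM follow. Klkb1 peaked at CT5 with its nadir at CT1 (log2 peak-to-nadir ratio 1.12), and Proc also peaked at CT5 (13.4% of all genes). Mbl2 peaked at CT13 (19.8%), Masp1, F5 and Hgfac at CT9 (14.7%), and C1ra, C8g, F12 and F11 at CT21 (16.7%).

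CT21 lies between CT17 and CT1 and was low for fibrinogen, at 6216 CPM for Fga. A rhythm of 24 h was tested next. None of the genes passed edgeR's quasi-likelihood F test of a 24-h cosine (0 of 40 at an adjusted p under 0.05, 0 of 40 at an unadjusted p under 0.05, where 0.0% and 9.52% of all 12938 genes tested passed). DESeq2 called 0 of 40 (2.97% of all genes) and limma-voom 0 of 40 (0.0%). For Fga the fitted log2 amplitude was 1.14, with an adjusted p of 0.63 (edgeR) and an exact permutation p of 0.45. Mbl2 came nearest, at 211, 262, 298, 315, 246 and 205 CPM from CT1 to CT21, with a log2 amplitude of 0.31, an adjusted p of 0.52 (edgeR) or 0.0589 (DESeq2) and an exact permutation p of 0.0333 (adjusted 0.68). The exact test over the 60 distinct orders of 6 libraries can go no lower than 0.0167, and 4.8% of all genes were under 0.05 by it. With 6 libraries these tests do not show that rhythms are absent.

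**Figure D5:**
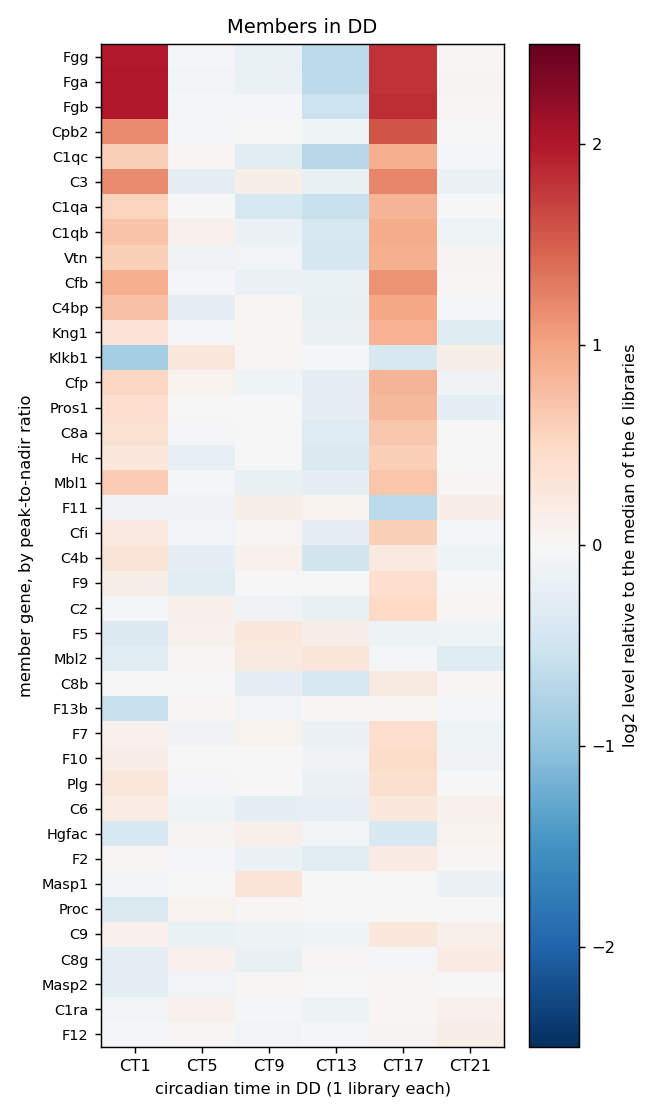
Log2 level relative to the median of the 6 DD libraries (colour) for each of the 40 genes (y axis, ordered by peak-to-nadir ratio) by circadian time (x axis, 1 library each). The red columns at CT1 and CT17 are strongest for Fgg, Fga and Fgb, and Klkb1 and F11 are blue at 1 of these times or both.

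Other genes of the cascades were described from fixed lists. Of 26 complement regulators, receptors and further components compared after fasting, 2 were at least 2-fold higher and 6 lower, with a median log2 ratio of -0.38, beside 11.1% and 9.47% of all genes. After refeeding 1 was higher and 5 lower (median -0.13), beside 7.71% and 7.82% of all genes. Genes ranked here had at least 100 counts in the higher library of the comparison. The lowest log2 ratios after fasting were those of C4a (-2.22), Itgam, a chain of complement receptor 3 (-1.71), and the fluid-phase inhibitor Clu (-1.39). Among the highest were those of Cd59a, which blocks pore assembly (1.14), and the collectin Colec10 (0.64). After refeeding, Itgam (-2.16) and C7 (-1.43) were among the lowest, and Cd59a (0.98), Itgax (0.90) and C1qbp (0.67) highest. Refed against fasted, Itgax (1.52, interval 0.96 to 2.12), C4a (1.14) and C1rl (0.67) had the highest log2 ratios, and Vsig4 (-0.57) and Itgam (-0.45) were among the lowest. Some of these levels were low. Itgax was at 1.24 CPM in the ad libitum, 0.803 in the fasted and 2.31 in the refed library. C4a was at 6.72 CPM in the fasted and 14.9 in the refed library, and C7 at 3.31 in the ad libitum and 1.23 in the refed library.

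Of 28 further coagulation factors, inhibitors and fibrinolysis genes, 1 was at least 2-fold higher and 10 were lower after fasting (median log2 ratio -0.65), set against 11.1% and 9.47% of all genes. Of 29 compared after refeeding 2 were higher and 8 lower (median -0.15), set against 7.71% and 7.82%. Gas6, a vitamin K-dependent receptor ligand, was at -4.35 in the fasted and -3.68 in the refed library against ad libitum on the log2 scale. Serpina10, the protein Z-dependent inhibitor of factors X and XI, was at -3.20 after fasting, with 1999 CPM in the ad libitum, 217 in the fasted and 727 in the refed library. F3, tissue factor, was higher at 1.70 and 1.90, from a low level of 1.05 CPM in the ad libitum library, and F8 was at 0.94 and 0.73. Adamts13 was at 0.18 after fasting, Tfpi2 at 0.62 and Fgl1 at -2.28 after refeeding. Refed against fasted, among genes with at least 100 counts in the higher library, Serpina10 (1.75), Habp2 (1.09) and Lman1, a cargo receptor for factors V and VIII (1.00), had the highest log2 ratios and Fgl1 (-0.47), Kng2 (-0.26) and F8 (-0.21) the lowest.

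Of the 6 genes of the vitamin K cycle, Ggcx, the γ-carboxylase, was 2-fold lower after fasting (log2 ratio -1.30, 152.8 against 61.9 CPM) and within the limit after refeeding (-0.29). Nqo1 and Aifm2, quinone reductases, were higher after fasting (1.36 and 1.24), and Nqo1 remained higher after refeeding (1.94). Vkorc1l1 was at 0.49 after fasting, and Aifm2 was at 0.49 and Vkorc1l1 at 0.31 after refeeding. Refed against fasted, Ggcx (1.01) and Nqo1 (0.58) were higher and Aifm2 (-0.75), Vkorc1l1 (-0.18) and Vkorc1 (-0.08) lower. Ggcx and F11 were both low in the fasted library and near their ad libitum level in the refed library, at 125 and 71.7 CPM. Endothelial markers, which stand for another source of coagulation proteins, had a median log2 ratio of 0.04 after fasting and -0.17 after refeeding, with 0 of 10 past 2-fold in either. Megakaryocyte and platelet markers summed to between 2.58 and 7.32 CPM, with Treml1 at 0 in at least 1 library. Stellate cell markers summed to between 454 and 685 CPM and cholangiocyte markers to between 43.0 and 464 CPM, the last highest in the ad libitum, CT17 and CT1 libraries. The 6 cholangiocyte markers did not move as a set. After fasting 1 was at least 2-fold higher and 2 lower (median log2 ratio 0.07), beside 11.1% and 9.47% of all genes. After refeeding 3 were higher and 2 lower (median 0.82), beside 7.71% and 7.82%.

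Of 15 transcription factors known to act on liver genes, 2 were at least 2-fold higher and 1 was lower after fasting (median log2 ratio -0.23), where 11.1% of all genes were higher and 9.47% lower. After refeeding 2 were higher and 3 lower (median -0.33), where 7.71% and 7.82% of all genes were. Stat3, the factor activated by interleukin-6 and also a gene of the acute phase list, was the lower one after fasting, at 308 CPM in the ad libitum, 75.6 in the fasted and 107 in the refed library. Hnf4a was at 834, 638 and 488 CPM and Cebpa at 228, 226 and 211 CPM. The higher 2 were the clock-controlled factors Dbp and Tef, with log2 ratios of 2.49 and 1.71 after fasting.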

How the data were processed

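RNA-seq covered 9 conditions of male C57BL/6J mouse liver. The livers of each condition were pooled, polyA+ RNA was made into 1 library, and paired reads of 150 bases were taken on a HiSeq instrument. Alignment by the authors was to GRCm38/mm10, with TopHat2 2.0.13 according to the submitters' processing notes, and they deposited whole-number counts for 27457 RefSeq transcripts per library. Which program counted reads, and whether it used strand, is not given in the sources used here. FPKM is named in the methods, but the deposited values are counts.

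Transcripts were named from RefSeq (GRCm38.p6, 26390) and GENCODE M21 (115). The 952 unnamed rows, with 0.346% to 0.817% of a library's counts, were left out. Of 20409 genes, 3734 have 2 or more rows, 7 of the 40 genes among them, and the row with the highest total was kept.

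Libraries were scaled by TMM (edgeR 4.0.16, R 4.3.3). Ratios between libraries carry exact 95% counting intervals from the conditional binomial and no p-value, because there is 1 library per condition. A gene was called at 2-fold with at least 10 counts in the higher library. Across all genes a library at 0 was set at 3 counts, which affects none of the 40. The DD rhythm test was edgeR's quasi-likelihood F test on cosine and sine terms of a 24-h period, with 3 residual degrees of freedom. Genes were kept by filterByExpr (minimum count 10), and p-values were adjusted by Benjamini-Hochberg with a threshold of 0.05. DESeq2 1.42.0, limma 3.58.1 (voom) and an exact permutation test of a least-squares cosine (720 orders, 60 distinct) were alternatives. Levels between genes were compared per transcript length (GENCODE M21). The tests and ratios were checked on simulated data. Python 3.11.15, pandas 2.3.3, numpy 2.4.6, scipy 1.17.1 and matplotlib 3.10.9 were used.

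All 40 genes are accounted for. Values in all 9 libraries are given for C3, Fga, Fgb, Fgg, C4b, C9, Cfb, F2, F11, Plg, C1qa, C1qb and C1qc and for further members past 2-fold against ad libitum with at least 100 counts. From each pathway list the 3 largest ratios in each direction with at least 100 counts were taken. A few of the genes so taken are left out of the text. The Fga, Fgb and Fgg sequences, Dbp, Mbl2 and the transcription factors were chosen for mention after their values were seen. The members and the lists (complement regulators and receptors, further coagulation genes, vitamin K cycle, acute phase, transcription factors, cell type markers) were chosen with earlier results of these data known. Cfhr3, Cd68 and Ly6g were not analysed here.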

Additional observations from a re-analysis of the deposited data

How the results depend on the processing

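No paired analysis was possible because each condition has 1 library and the libraries share no replicate number. The number of the 40 genes past the limit against ad libitum was 12 for fasted and 9 for refed. It was 24 and 14 at a 1.5-fold limit, 7 and 4 at a 3-fold limit, and 4 and 0 with the mean of the 6 DD libraries in place of ad libitum. With the mean of CT5, CT9, CT13 and CT21, a comparison chosen after seeing the data, it was 3 and 0, and with CT1 it was 9 and 5. Refed against fasted it was 2, and 9 at 1.5-fold and 1 at 3-fold. DD peaks numbered 15, and 27 at 1.5-fold, 5 at 3-fold and 0 without CT1 and CT17 (chosen after seeing the data), while leaving out 1 DD library at a time gave 11 to 15. Among genes called refed against ad libitum, 22.2% were higher with TMM, 33.3% with total counts (3 of 9) and 12.5% with no scaling. For fasted, 16.7% were higher with TMM and 5.88% with no scaling (1 of 17, Klkb1 without F13b). With total counts the median over all genes moved from -0.05 to 0.13 (log2, fasted) and from -0.03 to 0.18 (refed), and no scaling moved it to -0.30 and -0.13. The number of the 40 genes lower by any size after fasting was accordingly 33 with TMM, 29 with total counts and 34 with no scaling, so signs of ratios near 0 depend on the scaling. Over 216 recomputed ratios of the genes with values in every library, 0 of those past 2-fold changed sign. However, 179 of the 216 fell outside the counting interval of the main value. Fga after fasting, for example, was at -3.08 with total counts and -3.51 with no scaling. Summing transcript rows left these counts unchanged, as did other count minimums, which could remove none of the 40 because their lowest count was 833. Of the 40 genes, 0 were called rhythmic in all 13 settings tried. Over all genes, the main edgeR test, limma-voom and the adjusted exact test called 0.0% and DESeq2 2.97%. The result for the 40 therefore says little about these genes in particular.

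Counting precision did not limit these values, since the widest interval of a fasted ratio spanned 0.22 on the log2 scale. The single pooled library per condition did, and the choice of scaling moved most of the recomputed ratios outside their counting intervals.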
